A study of Mus musculus with 28 samples.

Results

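The genes described here are the numbered Zfp genes of the mouse, named for zinc finger proteins, in liver and kidney RNA sequencing of mice given nicotinamide mononucleotide (NMN) or water. Protein-coding genes whose symbol is Zfp followed only by digits were taken, and a gene was kept in an organ when at least 10 counts were found in at least 3 of its 14 libraries. Of 365 such symbols, 322 were kept, from a table of 54446 genes. The liver held 288 and the kidney 320. Both organs shared 286 of them, 34 were kept in the kidney only, and Zfp872 and Zfp982 were kept in the liver only.

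NMN is a precursor of NAD+, the coenzyme of redox reactions and the substrate of sirtuins. Male C57BL/6 mice (C57BL6J in the study's methods) aged 8 weeks received NMN or water by gavage for 7 days, at 1340 mg/kg/d or at 2680 mg/kg/d. The higher dose was reached with more gavages per day, so dose and gavage frequency cannot be told apart, and the water mice of each schedule were gavaged as often as its NMN mice. In each organ there were 4 NMN and 4 water libraries at 1340 mg/kg/d, and 3 NMN and 3 water libraries at 2680 mg/kg/d, 28 in all. The labels number the libraries within a group but do not say whether a liver and a kidney library came from the same mouse, so p-values measure the spread between these libraries. Counted reads per library ranged from 12688324 to 33872983.

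A classical C2H2 zinc finger is a short loop of protein held by a zinc ion between a pair of cysteines and a pair of histidines, and a row of such fingers reads a stretch of DNA. Many of these proteins also carry a KRAB box, which binds the corepressor Trim28 (KAP1) and so brings Setdb1 and HP1 proteins to silence retrotransposons and imprinted genes. Other members have different tasks. Zfp36 (tristetraprolin) binds AU-rich messenger RNAs and speeds their decay, Zfp598 marks collided ribosomes, and Zfp91 is a ubiquitin ligase.

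The tissue labels were checked against markers. Hepatocyte markers, with Alb the most abundant, summed to between 96431 and 163407 CPM (read counts scaled to a common library size) in the liver libraries and to at most 259 CPM in the kidney libraries. Kidney tubule markers summed to between 23706 and 39663 CPM in kidney and to at most 62.0 CPM in liver. The highest sum in the other organ was thus 0.269% and 0.262% of the lowest sum in the own organ. These were whole pieces of organ, in which fewer cells of a type and less RNA per cell cannot be told apart.

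A KRAB box was found in the coding sequence of 191 of the 322 genes (59.3%). The median gene encoded 11 C2H2 fingers, with a range from 0 to 36. Genes with a KRAB box had a median of 12 fingers and those without had 7. In 8 genes no C2H2 pattern was found. Chromosome 7 held 81 members, 51 of them with a KRAB box, and chromosomes 17, 13 and 8 held 41, 29 and 23. Genes with a KRAB box were poorer in GC (median 42.6% of exon bases, against 50% without) and had shorter exon sequence (median 4270 bases, against 5514).

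Fingers are shown from Zfp131 and Zfp759, the genes with the smallest adjusted p among those that rose and among those that fell after NMN. Each line is the coding strand in mouse build GRCm38 (GENCODE M21), 5′ to 3′, and the codons of the zinc-binding cysteines and histidines are in capitals. The stretch of Zfp131 lies at chr13:119775972-119776034 on the minus strand and that of Zfp759 at chr13:67138876-67138938 on the plus strand.
Zfp131: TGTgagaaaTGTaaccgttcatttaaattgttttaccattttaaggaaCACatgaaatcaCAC
Zfp759: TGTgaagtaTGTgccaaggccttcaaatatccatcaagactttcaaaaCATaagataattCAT

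Such repeats, and recent duplications, limit how well reads can be placed. In 46 of the 322 genes more than 10% of the 50-base stretches of exon sequence also occurred in another gene, and 40 of these 46 had a KRAB box. Exons of 95 members overlapped exons of another gene, and counting ignored strand, so reads of overlapping genes on opposite strands cannot be told apart. The 43 symbols that missed the count rule in both organs had a median of 32.6% shared stretches, and 31 of them had a KRAB box. In Zfp825, 237 of 680 coding stretches (34.9%) occurred elsewhere. The stretch printed next, at chr13:74482869-74482918 on the minus strand of GRCm38, is shown because it is also found in E430024I08Rik, Gm46430, Gm47467 and Gm47469, so reads inside it cannot be given to a single gene.
Zfp825: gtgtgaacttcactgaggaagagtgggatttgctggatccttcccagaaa

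At the edge of the count rule, the liver genes Zfp641, Zfp37, Zfp57, Zfp677, Zfp456 and Zfp977 reached 10 counts in exactly 3 libraries, with highest counts between 11 and 20. Zfp879, Zfp61, Zfp786, Zfp811, Zfp442 and Zfp433 reached it in 2, with highest counts between 11 and 29. In kidney, Zfp853 was just inside and Zfp784 and Zfp982 just outside.

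In water mice the zinc finger genes were expressed at low levels. Their median was 4.15 CPM in liver, where the median of all genes passing the same count rule was 10.9 CPM. In kidney the medians were 9.62 and 15.1 CPM. Per kilobase of exon, the members' median level was 0.916 CPM/kb in liver and 2.01 CPM/kb in kidney, against 2.25 and 3.23 CPM/kb for all genes. Genes with a KRAB box were lower still: their median was 3.21 CPM in liver and 6.42 CPM in kidney, whereas genes without the box had 8.73 and 18.8 CPM. In liver 36 of the 288 members were under 1 CPM and 64 were over 10 CPM, and in kidney the numbers were 17 and 157 of 320.

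**Figure D1:**
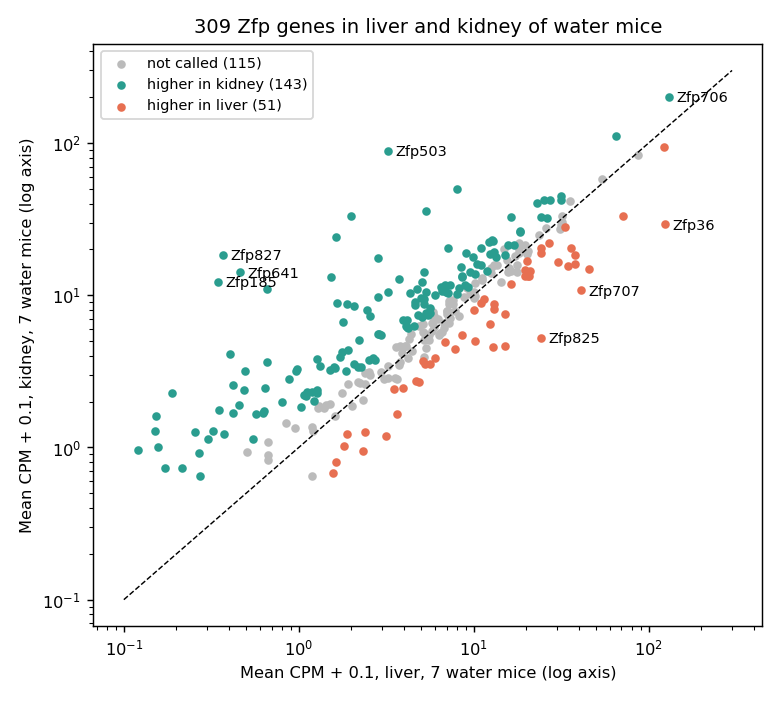
Mean level in water mice of the 309 zinc finger genes tested between the organs. Liver is on the horizontal and kidney on the vertical axis, both in CPM with a small constant added, on log scales. Colours mark the 143 genes higher in kidney, the 51 higher in liver and those not called.

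The most abundant members per length in liver were Zfp36, Zfp706, Zfp598, Zfp825 and Zfp771, and in kidney Zfp706, Zfp503, Zfp207, Zfp768 and Zfp830. Over the 7 water livers, Zfp36 had a lowest, median and highest level of 15.2, 26.2 and 42.5 CPM/kb. Zfp706 had 17.1, 18.9 and 21.1 CPM/kb, so the ranges of the first and second gene overlapped. Zfp598 followed with 11.3, 12.7 and 16.8 CPM/kb, below every Zfp706 value. The ranges of Zfp598, of Zfp825 (8.72, 11.6 and 12.9) and of Zfp771 (8.65, 10.5 and 14.3 CPM/kb) overlapped each other. In the 7 water kidneys Zfp706 had 44.4, 59.0 and 67.8 CPM/kb and Zfp503, a developmental repressor, 26.9, 29.8 and 33.5 CPM/kb. Those ranges were apart from each other and from that of the gene with the next highest mean, Zfp207, a spindle assembly protein, with 14.3, 15.3 and 22.1 CPM/kb. The ranges of Zfp768 (15.5, 17.2 and 18.2) and Zfp830 (13.6, 15.8 and 22.3 CPM/kb) overlapped that of Zfp207.

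The spread between water mice was larger for the zinc finger genes than for genes in general, and the gap was narrower among genes of at least 10 CPM. Among genes of at least 1 CPM, the median SD of log2 CPM within a schedule was 0.298 for 252 members and 0.249 for 11564 genes in liver, and 0.188 and 0.162 in kidney. In that upper range the medians were 0.226 and 0.208 in liver and 0.137 and 0.128 in kidney. Zfp871 varied most in liver, with an SD of 1.30 and levels of 0.0773, 2.58 and 7.91 CPM (lowest, median, highest). Zfp9 (SD 0.872, 0.614 to 5.09 CPM) and Zfp970 (SD 0.790, 2.53 to 32.4 CPM) came next. Of the exon stretches of Zfp970, 49.5% also occurred in other genes. In kidney the most variable were Zfp551 (SD 0.574), Zfp953 (SD 0.552) and Zfp871 (SD 0.530).

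To see which zinc finger genes differ between the organs without NMN, the 7 water kidneys were compared with the 7 water livers. Of 309 members tested, 194 (62.8%) passed a threshold of 0.05 by edgeR (quasi-likelihood test, Benjamini-Hochberg adjusted p), while 77.3% of all 15100 genes did. Kidney was higher for 143 members (46.3% of those tested) and liver for 51, where 41.6% and 35.7% of all genes tested were higher and lower. Of the genes called, 73.7% of members and 53.8% of all genes were higher in kidney. The members' median log2 difference was 0.36, against 0.12 for all genes. Part of that split follows from the count rule, since the 25 tested members that were kept in kidney only could enter only by being high there. Of these, 22 were higher in kidney and 0 in liver, and of the 284 kept in both organs 121 were higher in kidney and 51 in liver. No matching split of all genes is given, so whether the remaining excess in kidney is particular to the members is not shown. The ranges of the organs did not overlap for 84 members (27.2%), and for 49.7% of all genes. With offsets for GC and exon length the member median went from 0.36 to 0.07 and that of all genes from 0.12 to -0.12, and the split became 106 higher and 77 lower (57.9% higher, against 44.7% of all called genes). With upper quartile scaling the medians were 0.55 and 0.30 and the split 179 and 32 (84.8%, against 61.3%).

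Zfp827, known for recruiting the NuRD complex to telomeres, was kept in kidney only, as were Zfp185 and Zfp459, and was close to absent from liver. It ranged from 0 over a median of 0.279 to 0.446 CPM there and from 16.8 over 18.8 to 19.7 CPM in kidney. Zfp185, an actin-binding LIM protein and thus not a C2H2 factor, had 0, 0.297 and 0.538 CPM in liver and 8.70, 11.6 and 17 CPM in kidney (lowest, median, highest). No liver came near any kidney in either gene, and since the count rule took them from the kidney alone, no test is given for them. Zfp641 and Zfp503, kept in both organs, also had separate ranges, with log2 differences of 5.24 ± 0.32 and 4.85 ± 0.22 (SE, n = 7 and 7). Zfp503 rose from a median of 2.96 CPM in liver to 88.4 CPM in kidney. Zfp459, also taken from the kidney alone, had 138 counts over the water kidneys and 2 over the water livers.

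In the other direction, Zfp36 had 72.4, 125 and 205 CPM in liver and 20.1, 30.8 and 39.7 CPM in kidney. Every liver was above every kidney, with a kidney minus liver log2 difference of -2.09 ± 0.16 (edgeR adjusted p = 1.47e-09). Zfp825 had 18.5, 24.7 and 27.5 CPM in liver and 4.65, 5.16 and 6.00 CPM in kidney, a difference of -2.23 ± 0.11. Part of its coding sequence also occurs in other genes, as shown above, and reads that were not placed uniquely were left out. Zfp707 (-1.94 ± 0.11) and Zfp395 (-1.62 ± 0.17) had separate ranges too. Zfp970 passed (-1.52 ± 0.42, edgeR adjusted p = 0.00438), but its ranges overlapped, 3.52 to 44.2 CPM in liver and 2.76 to 5.4 CPM in kidney, and with the water mice of 2680 mg/kg/d alone its difference was -0.41 and did not pass.

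NMN at 2680 mg/kg/d was followed by the only zinc finger changes that passed the test, all in liver. There 276 of the 288 members could be tested, and 10 passed (3.62%), while 7.08% of all 12477 genes did. Zfp131, Zfp740, Zfp106, Zfp664, Zfp597, Zfp219, Zfp592, Zfp263 and Zfp91 rose (3.26% of members, against 3.05% of all genes). Zfp759 fell (0.362%, against 4.03%). The share that rose was near that of all genes and the share that fell was lower. Among the genes with a KRAB box, 2 of 159 passed (Zfp597 and Zfp759), and among those without, 8 of 117 did. That difference was not tested, and the genes with the box also had a lower level in this comparison (median log2 CPM 1.80, against 3.28).

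Zfp131, a BTB domain transcription factor, had 8.71, 7.61 and 8.23 CPM in the water livers and 18.8, 18.6 and 21 CPM in the NMN livers. All NMN livers were more than double every water liver. The log2 fold change was 1.25 ± 0.18 (SE, n = 3 and 3, edgeR adjusted p = 0.00404).
Zfp106, an RNA-binding zinc finger protein needed by motor neurons and muscle, had 38.0, 42.1 and 47.7 CPM with water and 82.1, 61.5 and 85.3 CPM with NMN. The groups were apart, with the second NMN liver nearest to the controls. The log2 fold change was 0.84 ± 0.17 (edgeR adjusted p = 0.0174).
Zfp91, which acts on the kinase NIK in noncanonical NF-kB signalling, had 67.3, 73.4 and 96.0 CPM with water and 126, 107 and 153 CPM with NMN. Again no values overlapped, and the log2 fold change was 0.71 ± 0.18 (edgeR adjusted p = 0.043).

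Zfp740 rose from 15.4, 13.0 and 16.8 CPM to 29.6, 25.4 and 29.8 CPM, by 0.91 ± 0.17 on the log2 scale (edgeR adjusted p = 0.0134). Zfp597 rose from 1.08, 1.39 and 2.72 CPM to 7.84, 4.12 and 6.62 CPM, by 1.84 ± 0.40 (edgeR adjusted p = 0.0224). The groups were separate in both genes, and Zfp597 had the lowest level of the 9 genes that rose. Zfp664 (12.3 to 15.8 CPM with water, 21.4 to 28.2 CPM with NMN) rose by 0.90 ± 0.19, and Zfp219 (16.1 to 24.2 and 30.6 to 34.4 CPM) rose by 0.74 ± 0.18. Zfp592 (25.1 to 27.9 and 35.8 to 49.1 CPM) rose by 0.64 ± 0.16 and Zfp263 (6.34 to 7.94 and 11 to 18.2 CPM) by 0.96 ± 0.25. Exons of Zfp740, Zfp106, Zfp597, Zfp219 and Zfp91 overlap those of other genes: Csad, Gm26899, Naa60 among others, Arhgef40 among others, and Cntf. A read lying wholly in exons of more than a single gene is ambiguous to the counting and entered no gene's level. How many reads each gene lost in this way was not measured.

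Zfp759, a KRAB zinc finger gene on chromosome 13, had 4.17, 3.75 and 1.24 CPM in the water livers and 0.739, 0.957 and 0.736 CPM in the NMN livers. All 3 NMN livers were below every water liver, but the third water liver was closer to the NMN livers than to its own group. The log2 fold change was -1.91 ± 0.51 (edgeR adjusted p = 0.0453). Its call was lost without the first or second water liver or any NMN liver, in a fit blocked by replicate number, without robust estimation, and with the covariate for reads outside exons. The next lowest p-values on the falling side were those of Zfp825 (log2 fold change -0.51, edgeR adjusted p = 0.119) and Zfp870 (-0.84, edgeR adjusted p = 0.12), which did not pass.

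**Figure D2:**
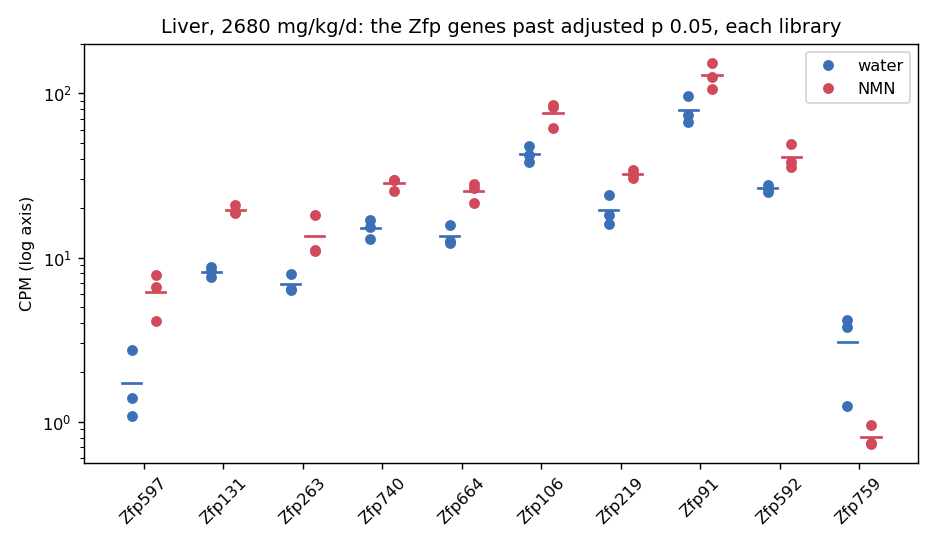
Level in each liver library at 2680 mg/kg/d, in CPM on a log axis, of the 10 zinc finger genes that passed an adjusted p of 0.05, with water and NMN libraries as separate points. In 9 genes the 3 NMN livers lie above the 3 water livers, and in Zfp759 they lie below, at 0.736 to 0.957 CPM.

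Over all members tested the shift was small. The member median was 0.14 on the log2 scale, against 0.00 for all genes, and 166 of 276 members (60.1%) had a positive log2 fold change, against 50.4%. Between libraries of a group the members' median had an SD of 0.0616. With offsets for GC content and exon length the median was 0.06, against 0.01 for all genes, and 151 of 276 members were positive. The NMN and water livers did not overlap in 47 members with NMN higher and in 23 with NMN lower (17% and 8.33%, against 13.8% and 16% of all genes), 25.4% in all, against 29.8%. An unadjusted p under 0.05 was reached by 17% of members and 24.6% of all genes. The median was 0.10 for genes with a KRAB box and 0.20 for genes without. An exact two-sided permutation test of 3 against 3 libraries cannot go below p = 0.1. It therefore cannot pass a single gene at 0.05, and its values are not used here. The number of calls depended on the libraries, from 1 (0.358%) without the third NMN liver to 18 (6.43%) without the second NMN liver, and was 6 without the first NMN liver and 2 without the first or the second water liver. The share of all genes called moved as well, to 5.60% without the first, 10.2% without the second and 1.83% without the third NMN liver, and to 2.45% without the first and 1.64% without the second water liver. Zfp131 passed with any 1 of the 6 libraries left out, while each of the other 9 genes lost its call in 2 to 5 of these 6 fits.

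Other measures moved with the same groups. Reads outside annotated exons made up 3.27 to 3.62% in the water livers and 3.90 to 5.06% in the NMN livers. The 6 hepatocyte markers all had negative log2 fold changes, and Ttr (-0.97, edgeR adjusted p = 0.00227) and Ahsg (-0.55, edgeR adjusted p = 0.0216) passed. The summed hepatocyte markers were at 148796 to 163407 CPM with water and at 123833 to 131277 CPM with NMN. Of the 6 macrophage, 6 endothelial, 7 mesenchymal and 4 lymphocyte markers tested, 0 passed. With the share of reads outside exons as a covariate, added after the data were seen, 0 members passed, and 128 of all genes did. Since that share did not overlap between the groups, this fit cannot tell its part from that of NMN. The loss of calls therefore decides nothing about either. The member median in that fit was 0.09, against 0.02 for all genes, with 150 of 276 members positive. All 10 genes had the same sign as before. Zfp131 had a log2 fold change of 1.23 (edgeR adjusted p = 0.0689), Zfp219 0.89, Zfp592 0.69, Zfp91 0.65 and Zfp759 -1.73. Zfp740 had 0.73, Zfp664 0.73, Zfp106 0.64, Zfp597 1.24 and Zfp263 0.34, and the change was larger than without the covariate for Zfp219 and Zfp592 and smaller for the other 8. The part of the hepatocyte markers in the gene changes was not tested.

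The starts of the called genes are given to show the sequence context of the changes. From RefSeq (GRCm38.p6), the 120 bases before the annotated start of 4 of the 10 genes are printed 5′ to 3′ on the strand of the gene, for the 3 risen genes described first and the fallen one. Capitals mark matches to the searched motifs: GGGCGG (GC box) in Zfp131 and Zfp106, the NRF1-type motif (GCGC, any pair of bases, GCGC) in Zfp91, and CCGGAAG (ETS core), CCAAT and, on the other strand, ACTACA (Znf143 type) in Zfp759. They lie at chr13:119790733-119790852 (minus strand), chr2:120563860-120563979 (minus strand), chr19:12796124-12796243 (minus strand) and chr13:67128108-67128227 (plus strand).
Zfp131: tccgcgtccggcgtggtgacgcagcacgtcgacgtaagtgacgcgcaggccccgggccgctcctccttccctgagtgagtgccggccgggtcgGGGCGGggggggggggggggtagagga
Zfp106: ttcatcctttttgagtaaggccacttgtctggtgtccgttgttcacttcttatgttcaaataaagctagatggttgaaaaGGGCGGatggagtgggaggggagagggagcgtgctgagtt
Zfp91: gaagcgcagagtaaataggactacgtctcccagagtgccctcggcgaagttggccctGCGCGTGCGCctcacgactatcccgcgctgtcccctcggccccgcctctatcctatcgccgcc
Zfp759: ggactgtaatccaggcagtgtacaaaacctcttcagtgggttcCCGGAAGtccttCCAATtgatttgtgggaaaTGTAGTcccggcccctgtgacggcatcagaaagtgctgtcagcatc

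Over whole RefSeq windows, 250 bases before to 50 after the start and on both strands, 326 windows belonged to 267 of the members and 32851 to all genes. CCGGAAG was present in 21.5% of member windows and 8.86% of all windows. ACTACA was present in 23.9% and 10.3%, CCAAT in 46.3% and 37.4%, GGGCGG in 44.8% and 35.7%, and the NRF1-type motif in 10.1% and 6.23%. TATAAA was rarer in the members, at 6.75% against 13.6%, and CACGTG was at 6.75% and 7.15%. Of the 10 called genes, 6 had CCAAT, 6 GGGCGG, 4 CCGGAAG, 4 the NRF1-type motif, 2 ACTACA, 1 TATAAA and 0 CACGTG. A called gene was counted when any of its windows held the motif, and Zfp131 had 2 windows. These counts of genes are therefore not a like measure to the shares of windows. These matches are descriptions of letters, not of bound sites.

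NMN at 1340 mg/kg/d was compared with its own water livers. Of 270 members tested, 0 passed in edgeR's quasi-likelihood test, and 0.0161% of all genes did. DESeq2 also called 0 (0.715% of all genes), and an unadjusted p under 0.05 was reached by 15 members (5.56%, against 6.86% of all genes), 11 of them higher. The member median was 0.11, against 0.00 for all genes, and 174 of 270 members (64.4%) had a positive log2 fold change, against 49.5% of all genes. That median was smaller than the spread of the members' median between libraries of a group (SD 0.219). Leaving out 1 library moved it from -0.00, without the fourth NMN liver, to 0.22, without the third water liver, and it was 0.18 without the first NMN liver. With the share of reads outside exons as a covariate it was -0.05, against -0.01 for all genes, with 115 of 270 members positive.

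Zfp369 had the smallest p of the members that were higher. It had 9.34, 5.73, 6.79 and 5.20 CPM with water and 11.5, 11.6, 8.86 and 12.5 CPM with NMN, and 1 pair of values was out of order. Its log2 fold change was 0.72 ± 0.23 (n = 4 and 4, edgeR adjusted p = 0.465). Zfp131, the leading gene of the higher schedule, had 9.10, 10.6, 10.3 and 8.72 CPM with water and 8.64, 18.9, 16.3 and 16.6 CPM with NMN. In 3 NMN livers Zfp131 was above all water livers and in the first it was below them, with a log2 fold change of 0.64 ± 0.23 (edgeR adjusted p = 0.578). Zfp169 had a log2 fold change of 1.88 (edgeR adjusted p = 0.584) at levels of 0 to 3.32 CPM. On the lower side, Zfp428 (-1.51, edgeR adjusted p = 0.486), Zfp932 (-0.63, edgeR adjusted p = 0.656) and Zfp414 (-0.70, edgeR adjusted p = 0.67) had the smallest p-values. Zfp932 and Zfp414 did not overlap between the groups, and in all 3 members were apart with NMN higher and 2 with NMN lower, where 1.78% and 1.74% of all genes were (3.53% in either direction).

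In kidney no zinc finger gene passed after either schedule. At 1340 mg/kg/d, 0 of 313 members passed in edgeR's quasi-likelihood test (0.12% of all genes did), and an unadjusted p under 0.05 was reached by 15 members, 14 of them lower (4.79%, against 8.94% of all genes). At 2680 mg/kg/d, 0 of 317 passed (0.4% of all genes did), and 21 reached an unadjusted p under 0.05, 17 of them lower (6.62%, against 11.1% of all genes). DESeq2 called 0 in both, where it called 1.08% and 1.59% of all genes. The member medians were -0.04 and -0.06, against 0.00 for all genes in both. A positive log2 fold change was found in 128 of 313 members (40.9%, against 50.3% of all genes) and in 119 of 317 (37.5%, against 50.8%). At 1340 mg/kg/d that median was within the spread between libraries (SD 0.0883) and changed sign, to 0.01, without the third water kidney. At 2680 mg/kg/d it exceeded that spread (SD 0.0298).

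Zfp444 had the smallest p at 1340 mg/kg/d. It had 72.2, 55.6, 59.9 and 62.0 CPM with water and 45.3, 40.2, 54.1 and 50.7 CPM with NMN. All NMN kidneys were below all water kidneys, with a log2 fold change of -0.39 ± 0.11 (n = 4 and 4, edgeR adjusted p = 0.235). Zfp750, known from epidermal differentiation, had 8.76, 9.0, 10.4 and 8.93 CPM with water and 4.60, 6.81, 6.42 and 6.32 CPM with NMN. It too was apart, at -0.62 ± 0.18 (edgeR adjusted p = 0.261), and at 2680 mg/kg/d it had -0.31 ± 0.16 (edgeR adjusted p = 0.489). Zfp697 followed (-0.41 ± 0.12, edgeR adjusted p = 0.263), and among those higher Zfp110 (0.31), Zfp619 (0.69) and Zfp458 (0.60). In all, 4 members were apart with NMN higher and 12 with NMN lower, where 2.29% and 2.83% of all genes were (5.12% in either direction).

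At 2680 mg/kg/d, Zfp612 had 19.4, 17 and 18.1 CPM with water and 13.4, 14.9 and 14.3 CPM with NMN. All NMN kidneys were lower, with a log2 fold change of -0.35 ± 0.11 (n = 3 and 3, edgeR adjusted p = 0.224), while at 1340 mg/kg/d its log2 fold change was 0.26 ± 0.15. Zfp472 had 3.62, 4.21 and 3.78 CPM with water and 2.35, 2.63 and 2.42 CPM with NMN (-0.65 ± 0.20, edgeR adjusted p = 0.229). Zfp946 had -0.30 (edgeR adjusted p = 0.245). Zfp622, a ribosome assembly factor, had 22.2, 23.3 and 24.0 CPM with water and 26.5, 28.6 and 27.3 CPM with NMN. Its groups were also apart, at 0.25 ± 0.09 (edgeR adjusted p = 0.322), and Zfp672 (0.22) and Zfp366 (0.49) came next among those higher. The groups did not overlap in 12 members with NMN higher and 38 with NMN lower, where 8.47% and 8.69% of all genes did so (17.2% in either direction). Here the share of reads outside exons was 6.85 to 7.36% with water and 6.45 to 6.62% with NMN, so that it also differed between the groups. With that share as a covariate, an alternative added after the data were seen, the member median went from -0.06 to -0.03. The median of all genes in that fit was 0.00. There 142 of 317 members were positive and 11 had an unadjusted edgeR p under 0.05 (3.47%, against 6.99% of all genes). In that fit 0 members and 0 of all 15245 genes passed. The share did not overlap between the groups, so the fit cannot tell its part from that of NMN. Kidney tubule markers, with Kap the most abundant, summed to 31229 to 32300 CPM with water and to 23706 to 28181 CPM with NMN. At 1340 mg/kg/d they summed to 32990 to 39663 and to 26668 to 31692 CPM, so the groups did not overlap in either schedule. After TMM scaling they overlapped at 1340 mg/kg/d, at 32567 to 41609 and 25993 to 32689 CPM. Of the 8 tubule markers 0 passed in either, and their part in the shift was not tested.

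**Figure D3:**
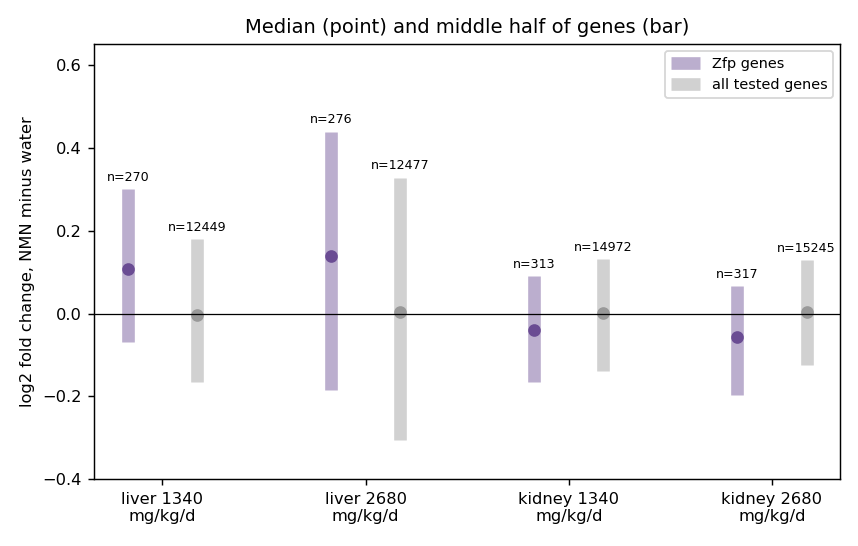
NMN minus water log2 fold change of the tested zinc finger genes in each organ and schedule, set beside that of all tested genes. Points are medians and bars run from the first to the third quartile of the genes. The member medians are 0.11 and 0.14 in liver and -0.04 and -0.06 in kidney, at 1340 and 2680 mg/kg/d.

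The shift of the members was then followed library by library, as the median over members of log2 CPM minus the water mean of the same organ and schedule. In liver at 1340 mg/kg/d it ran from -0.12 to 0.21 in water mice and from -0.19 to 0.48 in NMN mice, so the ranges overlapped. The highest value, 0.48, was that of the fourth NMN liver, which also had the most reads outside exons (12.8%), and the lowest was that of the first NMN liver, with the fewest in its schedule (4.91%). In liver at 2680 mg/kg/d the water livers had -0.05 to 0.06 and the NMN livers 0.08 to 0.21, with no overlap. In kidney the ranges were -0.13 to 0.10 with water and -0.13 to 0.03 with NMN at 1340 mg/kg/d. At 2680 mg/kg/d they were -0.03 to 0.05 with water and -0.07 to -0.04 with NMN.

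**Figure D4:**
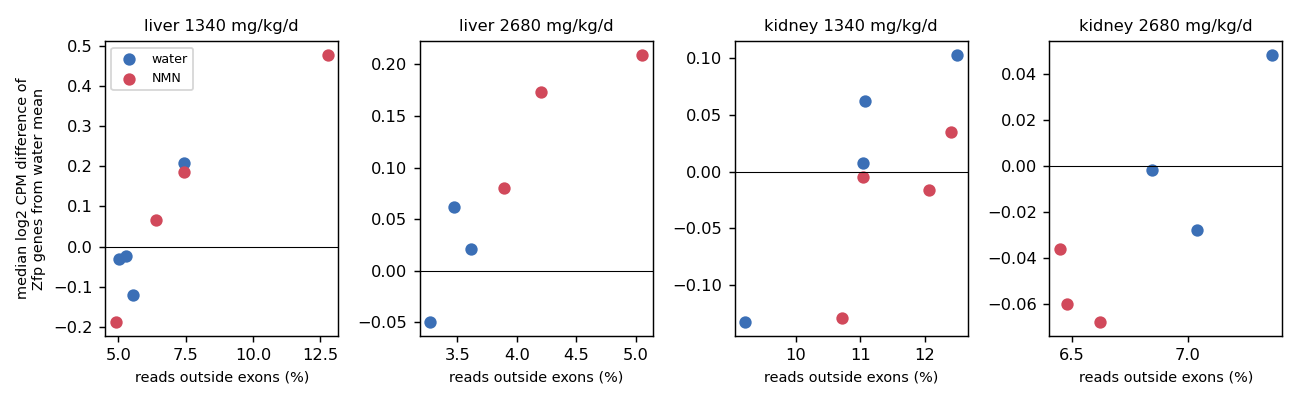
Median shift of the zinc finger genes in each library, in log2 units relative to the water mean of its organ and schedule, against the percentage of reads outside annotated exons. The fourth NMN liver at 1340 mg/kg/d stands at the far end of both axes, at 0.48 and 12.8%.

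Gene length and GC content were related only weakly to the fold changes, and not always as in other genes. Across members, Spearman's rho between GC content and log2 fold change was -0.13 (n = 270) and -0.14 (n = 276) in liver at 1340 and 2680 mg/kg/d, and -0.05 (n = 313) and 0.26 (n = 317) in kidney. Across all genes the values were -0.14, -0.22, -0.15 and 0.16. For exon length the members had 0.13, 0.09, 0.14 and 0.18 and all genes 0.22, 0.25, 0.20 and -0.01, in the same order. For the span of the gene the members had 0.12, 0.14, 0.17 and -0.01 and all genes 0.15, 0.17, 0.17 and 0.00. These are correlations across genes that share the same libraries, and genes are not independent replicates.

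The position of the members on these scales is uneven. In liver at 2680 mg/kg/d, 133 of the 276 lay in the lowest quartile of all genes by GC content, where their median log2 fold change was 0.21 and that of all genes 0.17. In the highest quartile by GC, 47 members had a median of -0.03, and all genes had -0.11. By exon length, the 40 members of the shortest quartile had a median of 0.01 (all genes -0.16) and the 70 of the longest 0.23 (all genes 0.19). With offsets for GC content and exon length in the fit, the member median fell from 0.14 to 0.06, and 9 members passed (3.26%, against 7.53% of all genes). In kidney at 2680 mg/kg/d, the 155 members in the lowest GC quartile had a median of -0.10 and all its genes -0.05.

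**Figure D5:**
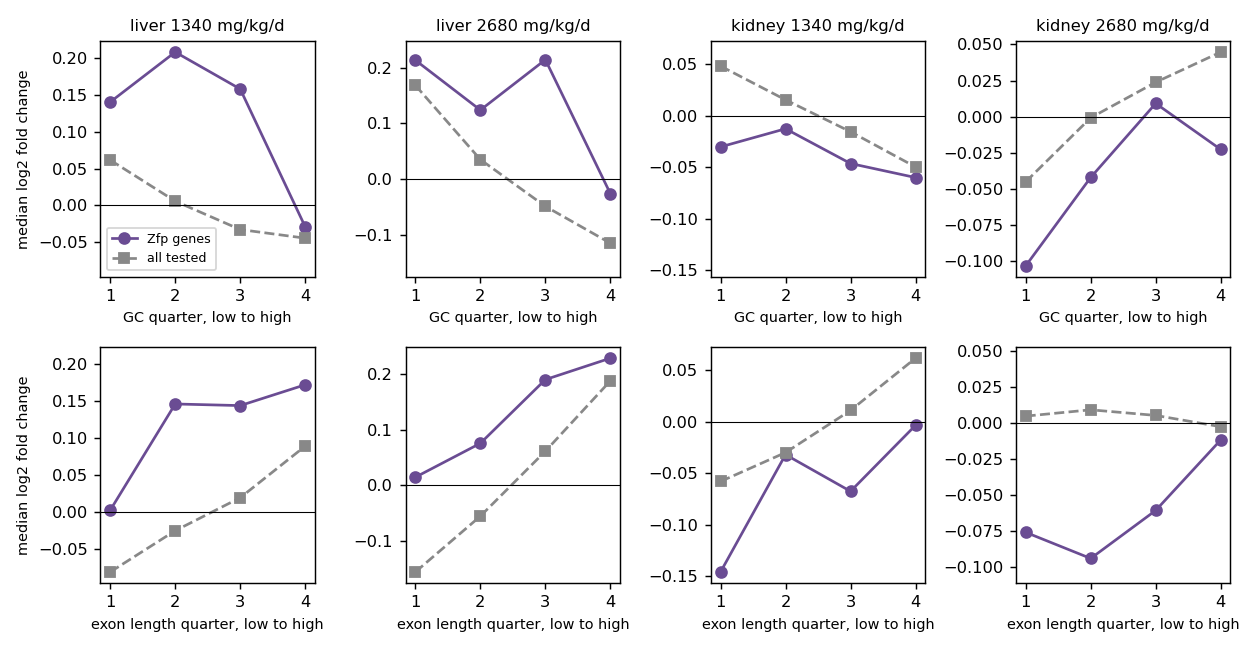
Median NMN minus water log2 fold change by quartile of GC content and of exon length, for zinc finger genes and for all tested genes, in each organ and schedule. In liver at 2680 mg/kg/d the all-gene medians fall with each step of GC content, from 0.17 to -0.11, while the member medians are 0.21, 0.12, 0.21 and -0.03.

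The members with known tasks were described as a group of 21 listed symbols, of which 17 and 18 were tested in liver and 20 in each kidney comparison. Zfp125 matched no protein-coding gene. Only Zfp106 and Zfp91 passed, both higher in liver at 2680 mg/kg/d, 2 of 18 where 3.05% of all genes rose. Zfp36 had 97.5, 53.8, 66.8 and 93 CPM with water and 182, 114, 86.2 and 48.8 CPM with NMN in liver at 1340 mg/kg/d. The NMN livers spanned all the water livers, with a log2 fold change of 0.47 ± 0.38 (edgeR adjusted p = 0.862). Its log2 fold changes were -0.01 in liver at 2680 mg/kg/d, and 0.78 and 0.01 in kidney, and the sign at 2680 mg/kg/d changed in both organs with the library left out. In kidney at 1340 mg/kg/d its value rested on the first NMN kidney, at 139 CPM, when the other 7 kidneys were at 30.04 to 46.0 CPM. Zfp809, which silences murine leukemia provirus, had log2 fold changes of -0.33 and 0.24 in liver and 0.16 and 0.12 in kidney, at 1340 and 2680 mg/kg/d. Zfp57, which keeps imprints, was too low to test in either separate liver comparison and had -0.21 and -0.20 in kidney, and 0 of these passed.

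The partners of the KRAB box were followed through a list of 27 corepressor genes. In liver at 2680 mg/kg/d 26 were tested and 1 passed (4.03% of all genes fell): Hdac1, lower, a histone deacetylase, at 23.2, 25.8 and 18.8 CPM with water and 12.7, 13.2 and 11.4 CPM with NMN. The groups were apart, with a log2 fold change of -0.86 ± 0.18 (edgeR adjusted p = 0.0206). In kidney at 2680 mg/kg/d 27 were tested and 1 passed (0.4% of all genes did): Chd3, lower, a subunit of NuRD, at 366, 371 and 398 CPM with water and 286, 276 and 274 CPM with NMN. Its log2 fold change was -0.44 ± 0.08 (edgeR adjusted p = 0.0399), and in liver at that schedule it was 0.39 ± 0.15 and did not pass. The kidney call of Chd3 was lost with the share of reads outside exons as a covariate, where 0 of all 15245 genes passed. Trim28 itself had 59.5, 68.6 and 52.4 CPM with water and 70.4, 60.2 and 61.5 CPM with NMN in liver at 2680 mg/kg/d. The groups overlapped (0.09 ± 0.15, edgeR adjusted p = 0.768). At 1340 mg/kg/d 0 corepressor genes passed in either organ, and the list's medians were 0.08 in liver and -0.02 in kidney at 2680 mg/kg/d. Of the HUSH complex, which silences retroelements, 3 genes were tested in each comparison and 0 passed.

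Some genes of other zinc finger families passed in liver at 2680 mg/kg/d as well, where 3.05% of all genes rose. Zbtb42, Zbtb44 and Zbtb2, of 37 Zbtb genes tested, rose, by 1.44, 1.27 and 1.18 on the log2 scale. Zc3h14 and Zc3h11a, of 17 Zc3h genes with CCCH fingers, rose by 0.70 and 2.30. Klf11, Klf3 and Klf15, of 13 Klf genes, rose by 1.32, 0.68 and 0.67. Klf15, a regulator of hepatic gluconeogenesis, went from 132, 176 and 147 CPM to 203, 245 and 274 CPM. Of 16 Zkscan and Zscan genes and 27 Zfp symbols with other endings, 0 passed. In the other 3 NMN comparisons 0 genes of these 5 families passed. The 14 CCR4-NOT, decapping and decay partners of Zfp36 and the immediate early genes, 14 or 15 of which were tested, had 0 passing in any of the 4 comparisons. The immediate early medians were 0.69 and 0.45 in liver and 0.66 and 0.07 in kidney, at 1340 and 2680 mg/kg/d.

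The schedules share no libraries and were set side by side. In liver 168 of 269 members (62.5%) had the same sign in both, against 68.4% of all genes, with 117 higher and 51 lower in both. In kidney 171 of 312 (54.8%) had the same sign, against 57.9%, with 52 higher and 119 lower in both. Whether the NMN effect differed between the schedules was tested as an interaction. In liver 0 members passed in edgeR's quasi-likelihood test (0.0746% of all genes did), with 14 at an unadjusted p under 0.05 (4.98%, against 8.60% of all genes). In kidney 0 passed (0.00625% did), with 10 at an unadjusted p under 0.05 (3.12%, against 4.62%). The smallest interaction p in liver was that of Zfp759, with a log2 fold change of 0.58 ± 0.39 at 1340 mg/kg/d and -1.91 ± 0.51 at 2680 mg/kg/d. Its interaction was -2.48 ± 0.65 (edgeR adjusted p = 0.184), and it passed in DESeq2 (adjusted p = 0.0279). Zfp740 and Zfp219 had interactions of 0.65 and 0.82, and in kidney Zfp612, Zfp672 and Zfp768 had -0.62, 0.34 and 0.39, with adjusted p-values from 0.35 up.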

How the data were processed

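The authors used STAR at default settings for alignment and HTSeq for counting, in its intersection-strict mode and without strand, per the labels and the study's methods. The deposited files hold raw counts per Ensembl gene, 1 file per library, with 12688324 to 33872983 counted reads. HTSeq's rows for reads outside genes, ambiguous or not unique were left out of library sizes. Symbols, exon length, GC content, finger patterns and KRAB boxes came from GENCODE M21 on GRCm38, to which 53229 of 54446 identifiers matched with their version, 1180 without it and 37 not at all. A KRAB box was called when at least 8 of 15 conserved residues matched in the translated coding sequence.

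Each organ and schedule was fitted with edgeR 4.0.16 in R 4.3.3: TMM scaling, filterByExpr, robust quasi-likelihood test, Benjamini-Hochberg adjustment over all genes tested, threshold 0.05. CPM are counts scaled to library size after TMM within the comparison, so levels are compared across organs only in the joint fit of water mice, while levels per kilobase and marker sums are scaled within their own set of libraries. Offsets for GC and length, a replicate block, DESeq2 1.42.0, other scalings and filters, and leaving out each library were alternatives. Named are at most the 6 smallest p in each direction among members that passed, otherwise the 3 smallest p that did not, 21 listed genes, the 5 most abundant, the 5 with the largest organ difference in each direction, the 3 most variable, and the 3 smallest interaction p. Zfp592, Zfp263 and Zfp91 complete the 9 that rose. The members and lists were chosen with earlier results of these data known. Promoter sequences are from RefSeq, and RefSeq proteins were not used here.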

Additional observations from a re-analysis of the deposited data

Results flagged for a closer look

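In 5 places a single library lay far from the others of its group, by Dixon's criterion at 95%, among 66 groups of 4 tested, and chance alone marks about 1 in 20 groups. Zfp36 was at 139 CPM in the first NMN kidney at 1340 mg/kg/d, and the other 3 NMN kidneys were at 30.04 to 45.9 CPM. In that library the immediate early genes summed to 812 CPM, where the other 7 kidneys of the schedule had 200 to 386 CPM. Zfp706 was at 350 CPM in the same library, and the other NMN kidneys were at 312 to 314 CPM. Zfp953 was at 2.04 CPM in the fourth NMN kidney at 1340 mg/kg/d (others 4.15 to 4.49 CPM), and Zfp750 was at 10.4 CPM in the third water kidney (others 8.76 to 9.0 CPM). Zfp414 was at 4.51 CPM in the first water liver at 1340 mg/kg/d (others 3.61 to 3.73 CPM). In the reads outside annotated exons, which entered no gene's count, the NMN livers at 2680 mg/kg/d had a mean of 4.39% and the water livers 3.45%, with no overlap between the groups.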

How the results depend on the processing

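The count of 10 members called in liver at 2680 mg/kg/d was 19 in DESeq2 (6.88%, against 11.9% of all genes) and 23 without a filter on low counts (7.99%, against 8.47%). It was 1 at an adjusted p under 0.01 with more than 2-fold change (0.362%, against 1.08%). With the share of reads outside exons as a covariate, an alternative chosen after seeing the data, it was 0. That share did not overlap between the groups, so it cannot be told apart from NMN in that fit. Leaving out 1 library gave 1 to 18 calls. Its member median of 0.14 was 0.0604 with GC and length offsets and 0.0515 with these and the replicate block. Without a filter, 1 member was called in kidney at 1340 mg/kg/d (Zfp697), 1 in the liver interaction and 1 in the kidney interaction, where 1.02%, 0.292% and 0.365% of all genes were; DESeq2 also called 1 in the liver interaction (0.798% of all genes). Of the 194 organ differences, 84 passed the stricter threshold (27.2% of members tested, against 44.6% of all genes). The cause of these changes was not tested. All other alternatives kept the total of calls in each comparison within 1.5 times and each NMN member median within the spread between libraries. The direction of the organ calls moved more: 143 higher and 51 lower became 179 and 32 with upper quartile scaling and 121 and 22 in the 2680 mg/kg/d water mice alone (84.6% higher, against 56.0% of all called genes). Members at an unadjusted p under 0.05 numbered 9 to 30 over the libraries left out in liver at 1340 mg/kg/d and 10 to 26 in kidney at 2680 mg/kg/d, while the share of all genes ranged from 4.48 to 9.86% and from 7.81 to 11.6%. The genes named for their p-value or organ difference kept their direction, in the comparison they were named for, in every alternative run. Others did not: in liver at 2680 mg/kg/d Zfp36 had 0.00643 with the replicate block, 0.146 with GC and length offsets and 0.177 with both, and -0.19 to 0.245 over the libraries left out. In kidney at 2680 mg/kg/d it had -0.0114 with the offsets, -0.0104 with the block too, and -0.0833 to 0.0963 over the libraries left out. At 1340 mg/kg/d Zfp809 ranged from -0.553 to 0.0966 in liver over the libraries left out, above 0 without the third water liver, and Zfp57 from -0.406 to 0.182 in kidney, above 0 without the fourth water kidney. With the covariate for reads outside exons Zfp759 had -0.0521 in liver at 1340 mg/kg/d, Zfp809 -0.291 in liver and Zfp57 0.145 in kidney at 2680 mg/kg/d. Zfp91 was no longer called with GC and length offsets or without robust estimation, Zfp759 without robust estimation, Zfp592 with all 14 livers in 1 fit, Zfp263 with the block and offsets together, and Zfp970 as an organ difference with the 2680 mg/kg/d water mice alone. Equal replicate numbers were not shown to pair libraries: the correlation of deviations over same-numbered libraries was above 0.1 for every pair in none of the comparisons (0.06, 0.14 and 0.15 in liver at 2680 mg/kg/d, where 6 of 6 libraries nevertheless correlated best with their own number). With the replicate block 13 members rose and 0 fell in liver at 2680 mg/kg/d (4.71% and 0%, against 4.52% and 4.72% of all genes), where Zfp759 and Zfp263 did not pass, and the median was 0.13. Depth limits the genes under 1 CPM, 36 of 288 in liver and 17 of 320 in kidney.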
